A study of Homo sapiens with 6 samples.

Results

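Lysosomal proteases, hydrolases and membrane proteins were described here as 35 named genes, matched by symbol among the 28058 genes of the series' RPKM table. They comprise 14 proteases (12 cathepsins, LGMN and TPP1), 7 glycosidases, 5 genes of lipid handling, 5 membrane proteins, 3 subunits of the vacuolar proton pump (V-ATPase) and the transcription factor TFEB. All 35 symbols were found, and 34 of them passed the filter on low values. The cells were MDA-MB-231, an established human line from a triple-negative breast adenocarcinoma, grown in DMEM with serum. HSF1, the master transcription factor of the heat shock response, was targeted by a short hairpin RNA in 3 libraries (shHSF1), and the other 3 came from cells with a control hairpin (shCTL). The labels give neither the hairpins' sequences nor whether replicates were separate cultures. All 6 columns of the table carry the tag TGL, and each replicate number follows the letters cl; the sources used here explain neither, so whether the replicates are separate clones is not known. The p-values therefore cover the spread among 3 libraries a group and no more, and that spread may be technical.

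The lysosome is the acidic compartment in which cells break down proteins, glycans and lipids that arrive by endocytosis and autophagy. The V-ATPase acidifies its lumen, most of its soluble enzymes reach it through mannose 6-phosphate receptors, and heavily glycosylated membrane proteins such as LAMP1 line it. TFEB and its relatives TFE3 and MITF switch on many lysosomal genes through a short promoter element. In breast cancer cells, cathepsins are also known to be secreted, where they can cleave matrix proteins.

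HSF1 itself was at 5.01, 4.70 and 3.84 RPKM in the shHSF1 libraries, against 61.2, 53.3 and 47.9 RPKM in the shCTL libraries, which fits the labels. RPKM divides a gene's reads by its length in kilobases and by the library's assigned reads in units of 1000000, so levels can be set beside each other between genes. Reads assigned to genes ranged from 33988307 to 42615678 in shHSF1 and from 36737836 to 70449758 in shCTL. Tests were made with limma on log2(RPKM + 0.5), a scale that understates changes of low genes, over the 12433 genes that reached 0.5 RPKM in 3 or more libraries, adjusted over these genes by the Benjamini-Hochberg method, and an adjusted p under 0.05 counted as passing. Fold values are ratios of group mean RPKM. The labelled cell type is epithelial. Of 5 epithelial markers the keratin KRT8 was at 104 to 122 RPKM in shHSF1 and 103 to 114 RPKM in shCTL and did not pass, EPCAM rose 1.79-fold (limma adjusted p = 0.00381) and KRT18 fell 1.38-fold (limma adjusted p = 0.0183, a call lost without shCTL 1). KRT19 averaged 35.6 RPKM in shHSF1 and 50.1 RPKM in shCTL and did not pass (limma adjusted p = 0.0770). The summed level of the 5 epithelial markers was 323 to 387 RPKM in shHSF1 and 420 to 462 RPKM in shCTL, without overlap. The adhesion protein CDH1 reached 0.0422 RPKM at most, and the mesenchymal filament VIM was at 1891 RPKM or more. Of the other mesenchymal markers, CD44 rose 1.48-fold (limma adjusted p = 0.00568) and FN1 did not pass (0.113). The receptor ERBB2 fell 1.34-fold (limma adjusted p = 0.0275), a call lost without shCTL 1, shCTL 2 or shCTL 3, and ESR1 and PGR were not tested. Among 6 markers of blood and vessel cells, 1 or 2 reached 0.5 RPKM in each shHSF1 library and 0 or 1 in each shCTL library; the leukocyte marker PTPRC was at no more than 0.0451 RPKM, and the summed level of the 6 was 1.66 to 2.38 RPKM in shHSF1 and 0.645 to 1.44 RPKM in shCTL, with the macrophage receptor CSF1R at 0.378 to 0.620 and 0.0465 to 0.0538 RPKM. By group mean, LYZ (0.270 RPKM in shHSF1 and 0.0242 RPKM in shCTL), CD14 (1.08 and 0.636) and CD3E (0.0311 and 0.0182) were also higher in shHSF1. PECAM1 (0.0699 and 0.218 RPKM) and PTPRC (0.0141 and 0.0250 RPKM) were lower in shHSF1. CD3E was at 0 in shHSF1 2 and shCTL 2, and LYZ at 0 in shCTL 2. The part of these markers, epithelial ones included, in the results below was not tested.

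Lysosomal genes moved in both directions. Of the 34 tested, 8 rose in shHSF1 (CTSD, HEXA, LAMP1, TPP1, CTSZ, GUSB, PPT1 and CTSA), 4 fell (CTSV, GAA, TFEB and ASAH1) and 22 did not pass. CTSV and TFEB passed the filter on low values only through the shCTL libraries and so had to differ; of the other 32, 8 rose and 2 fell. Over all genes tested, 33.8% passed, 17.7% higher and 16.1% lower, and the 12 of 34 lysosomal genes that passed (35.3%) are close to that share. Their median log2 fold change was 0.05, against 0.04 over all genes tested. For the 22 genes that did not pass, the 95% intervals of the log2 fold change lay within -0.72 and 0.69, the lower end in GLA and the upper in CTSS. The abundant genes CTSD and LAMP1 rose. PSAP, the most abundant member in shCTL, averaged 196 RPKM in shHSF1 and 232 RPKM in shCTL and did not pass. Of the 4 genes that fell, CTSV, GAA and TFEB reached 5.65 RPKM at most in the 6 libraries. Genes as low in shHSF1 as CTSV and TFEB could be tested only if they were higher in shCTL. A link between level and direction can therefore not be read from them. In bulk RNA, a change in the share of cells and a change in RNA per cell cannot be told apart.

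**Figure D1:**
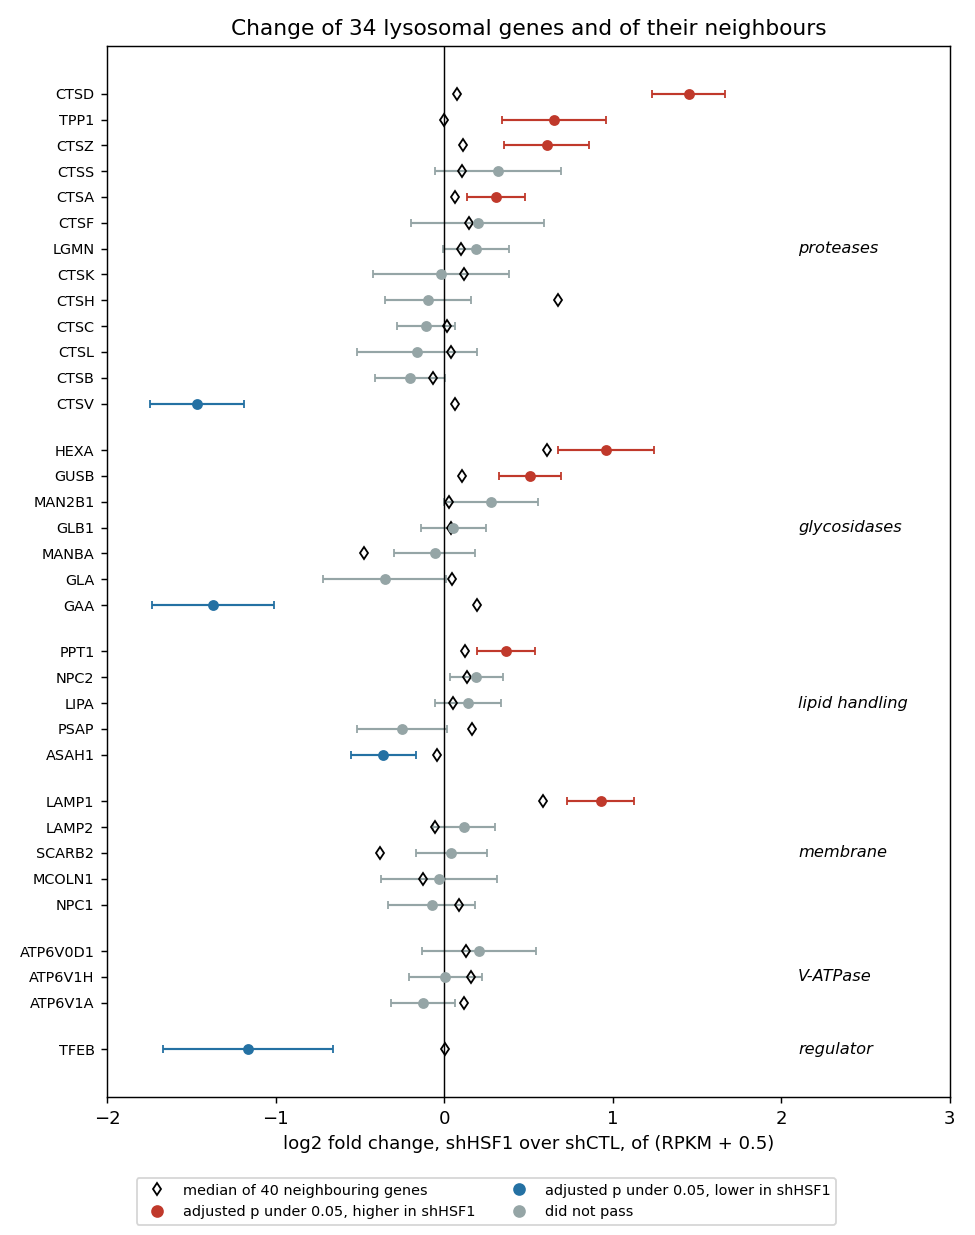
Log2 fold change, shHSF1 over shCTL, of log2(RPKM + 0.5) for the 34 tested lysosomal genes by class, with 95% confidence intervals from limma (n = 3 per group). Open diamonds give the median log2 fold change of the 40 tested genes nearest on the chromosome. CTSD lies at 1.45 with its neighbours at 0.08, whereas the neighbours of HEXA and LAMP1 lie at 0.61 and 0.59.

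When replicate number entered the model as a block, to take up the pairing of same-numbered libraries, 11 lysosomal genes were higher and 7 lower (18 of 34), where 48.3% of all genes tested passed, 26.2% higher and 22.1% lower. The 6 added genes were LGMN, MAN2B1 and NPC2 on the higher side and CTSB, GLA and PSAP on the lower side, with limma adjusted p from 0.00963 to 0.0376 in the blocked fit. Group values did not overlap for 9 genes on the higher side and 6 on the lower side, where 47.4% of all genes tested had such values, 25.6% higher and 21.8% lower.

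The promoters of 3 members are shown because they carry CACGTG, the core of the element that TFEB and its relatives bind. The genes also lie at opposite ends of the changes: CTSD and LAMP1 rose and GAA fell. Each is the stretch of 250 bases before the RefSeq start site on GRCh38.p14, read 5′ to 3′ on the gene's strand, with capitals for matches to the motif CACGTG or to the longer CLEAR element, which is CACGTG with GT before it and AC after it. CTSD comes from chr11:1763928-1764177 (minus strand), LAMP1 from chr13:113296989-113297238 (plus strand) and GAA from chr17:80101331-80101580 (plus strand).
CTSD: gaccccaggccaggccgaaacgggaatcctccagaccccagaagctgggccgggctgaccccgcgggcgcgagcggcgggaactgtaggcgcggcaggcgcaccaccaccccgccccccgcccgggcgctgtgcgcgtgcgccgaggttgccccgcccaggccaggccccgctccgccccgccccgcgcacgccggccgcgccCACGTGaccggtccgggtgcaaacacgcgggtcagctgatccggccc
LAMP1: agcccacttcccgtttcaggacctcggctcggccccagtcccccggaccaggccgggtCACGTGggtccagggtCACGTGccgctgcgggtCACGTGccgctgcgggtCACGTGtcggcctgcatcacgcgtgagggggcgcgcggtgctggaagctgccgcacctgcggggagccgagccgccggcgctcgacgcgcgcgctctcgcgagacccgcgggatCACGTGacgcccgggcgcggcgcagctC
GAA: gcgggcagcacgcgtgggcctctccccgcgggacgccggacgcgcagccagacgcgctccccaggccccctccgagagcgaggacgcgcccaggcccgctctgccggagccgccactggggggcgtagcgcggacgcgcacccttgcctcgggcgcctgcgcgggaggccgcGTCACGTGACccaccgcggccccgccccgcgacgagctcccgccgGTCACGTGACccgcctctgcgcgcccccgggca
In the full window of 250 bases before and 50 bases after the start, searched on both strands, LAMP1 held 6 matches to CACGTG, of which the last begins at the final printed base and runs past the start. Of the 3, only GAA held the CLEAR element, with 2 matches, and CTSD held 1 match to CACGTG. The table of promoters held 23 of the 35 members, of which 7 had CACGTG (ATP6V0D1, CTSA, CTSD, CTSF, GAA, LAMP1 and MCOLN1) and 2 had the CLEAR element (GAA and MCOLN1). Among all 27305 promoters the shares were 7.43% and 0.381%. A heat shock element, searched as the units GAA, TTC and GAA with 2 bases between neighbours, was in 0.487% of all promoters and in 0 of the 23. At so low a share, 23 promoters are too few to show whether members lack the element, and no other form was searched. A match describes letters in this window and is not a measured binding site. The 7 members with CACGTG did not move as a group: CTSA, CTSD and LAMP1 rose, GAA fell, and ATP6V0D1, CTSF and MCOLN1 did not pass.

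Among the proteases, 4 of 13 tested rose, 1 fell and 8 did not pass, with a median log2 fold change of 0.19. The share that passed was 38.5%, beside 33.8% of all genes tested. CTSD (chromosome 11, 1752752 to 1763992), the aspartic protease of the lysosome, had the largest rise of any member. Its level was 358, 357 and 295 RPKM in shHSF1, against 126, 124 and 117 RPKM in shCTL. Every shHSF1 library lay far above every shCTL library, and the change was 2.75-fold (log2 fold change 1.45, SE 0.0938, limma adjusted p = 4.66e-05). By replicate number, the log2 ratios of CTSD lay between 1.32 and 1.52. CTSD became the most abundant member: it made 42.2% to 48.6% of the summed protease RPKM in shHSF1, against 25.3% to 29.3% in shCTL. The sum itself was 698 to 754 RPKM in shHSF1 and 430 to 489 RPKM in shCTL. Of the 50-base stretches of CTSD transcripts in GENCODE v29, 36.5% also occur in another gene of that annotation that is not a row of the deposited table.

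CTSZ (chromosome 20, 58995187 to 59007254), a carboxypeptidase also called cathepsin X, rose 1.53-fold. It was at 132, 130.3 and 159.9 RPKM in shHSF1 and at 81.7, 97.9 and 96.7 RPKM in shCTL (log2 fold change 0.61, SE 0.109, limma adjusted p = 0.00431). TPP1 (chromosome 11, 6612766 to 6619461), the serine protease lost in a childhood form of neuronal ceroid lipofuscinosis, was at 28.9, 27.5 and 34.1 RPKM in shHSF1 and 15.8, 21.9 and 19.7 RPKM in shCTL. Its rise was 1.58-fold (log2 fold change 0.65, SE 0.134, limma adjusted p = 0.00798), and for CTSZ and TPP1 alike the groups did not overlap. CTSA (chromosome 20, 45890144 to 45898819), the carboxypeptidase that shields beta-galactosidase and neuraminidase in a complex, had a small rise. It was at 40.3, 35.8 and 35.5 RPKM in shHSF1, against 29.4, 29.9 and 30.6 RPKM in shCTL (1.24-fold, SE of log2 0.0747, limma adjusted p = 0.0163). That call was lost without shHSF1 1 or without shCTL 3 (limma adjusted p up to 0.0543). In the table's annotation, 39.9% of the exon bases of CTSA also lie in exons of NEURL2 and PLTP on the opposite strand, so reads there are uncertain.

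CTSV (chromosome 9, 97029677 to 97039643), a cysteine protease related to CTSL and best known from thymus and testis, fell 5.43-fold, the largest fall of any member. It was at 0.370, 0.362 and 0.264 RPKM in shHSF1 and at 1.76, 2.02 and 1.62 RPKM in shCTL, from 177 and 1200 reads per group. No library of either group overlapped the other (log2 fold change -1.47, SE 0.121, limma adjusted p = 0.000132). CTSV passed the filter on low values only through the shCTL libraries, so that it had to differ to be tested. With no filter on low values the adjusted p was 0.000913. Its relative CTSL, at 63.9, 60.4 and 60.3 RPKM in shHSF1 and 54.1, 86.9 and 69.3 RPKM in shCTL, did not pass (limma adjusted p = 0.468). The shCTL libraries of CTSL spread to both sides of the shHSF1 values, and the 95% interval of its log2 fold change was -0.52 to 0.20. Transcripts of CTSL and CTSV in GENCODE v29 share 0 stretches of 50 bases.

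The other cysteine cathepsins did not pass the test. CTSB, an abundant endopeptidase, was at 31.2, 29.7 and 25.8 RPKM in shHSF1 and 32.8, 35.3 and 31.9 RPKM in shCTL, all shHSF1 values below all shCTL values (limma adjusted p = 0.120, and 0.0376 with the replicate block). CTSC, which activates granule proteases of immune cells, averaged 26.8 ± 0.774 RPKM in shHSF1 and 28.97 ± 1.88 RPKM in shCTL (SD, n = 3 each). CTSH, an aminopeptidase, averaged 9.06 ± 1.26 and CTSF 7.86 ± 0.128 RPKM in shHSF1, against 9.66 ± 0.411 and 6.94 ± 1.91 RPKM in shCTL. Without shCTL 2, the highest library of CTSF, that gene passed at a log2 fold change of 0.39 (limma adjusted p = 0.0488), against 0.20 with all libraries (0.412). CTSS, known for antigen processing in myeloid cells, was at 5.55, 3.49 and 3.86 RPKM in shHSF1 and 3.30, 3.06 and 3.52 RPKM in shCTL, so that 1 shHSF1 library stood above the other 5. CTSK, the collagen-cleaving protease of osteoclasts, was near 1 RPKM, at 0.952 ± 0.196 RPKM in shHSF1 and 0.980 ± 0.289 RPKM in shCTL (SD, n = 3 each). LGMN, an asparagine-specific protease that processes cathepsins, was at 43.9 ± 3.59 RPKM in shHSF1 and 38.5 ± 2.17 RPKM in shCTL (limma adjusted p = 0.128, 0.0361 with the replicate block and 0.0369 without shHSF1 3).

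CTSO, another cysteine cathepsin, was listed at 0 in all 6 libraries and was not tested. For a library without a read, 3 reads set the limit, which was 0.01200 to 0.01505 RPKM in shHSF1 and 0.00726 to 0.0139 RPKM in shCTL, covering counting error alone. Of the gene length behind these limits, 50% is a copy of the CTSO exons on an alternate contig.

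**Figure D2:**
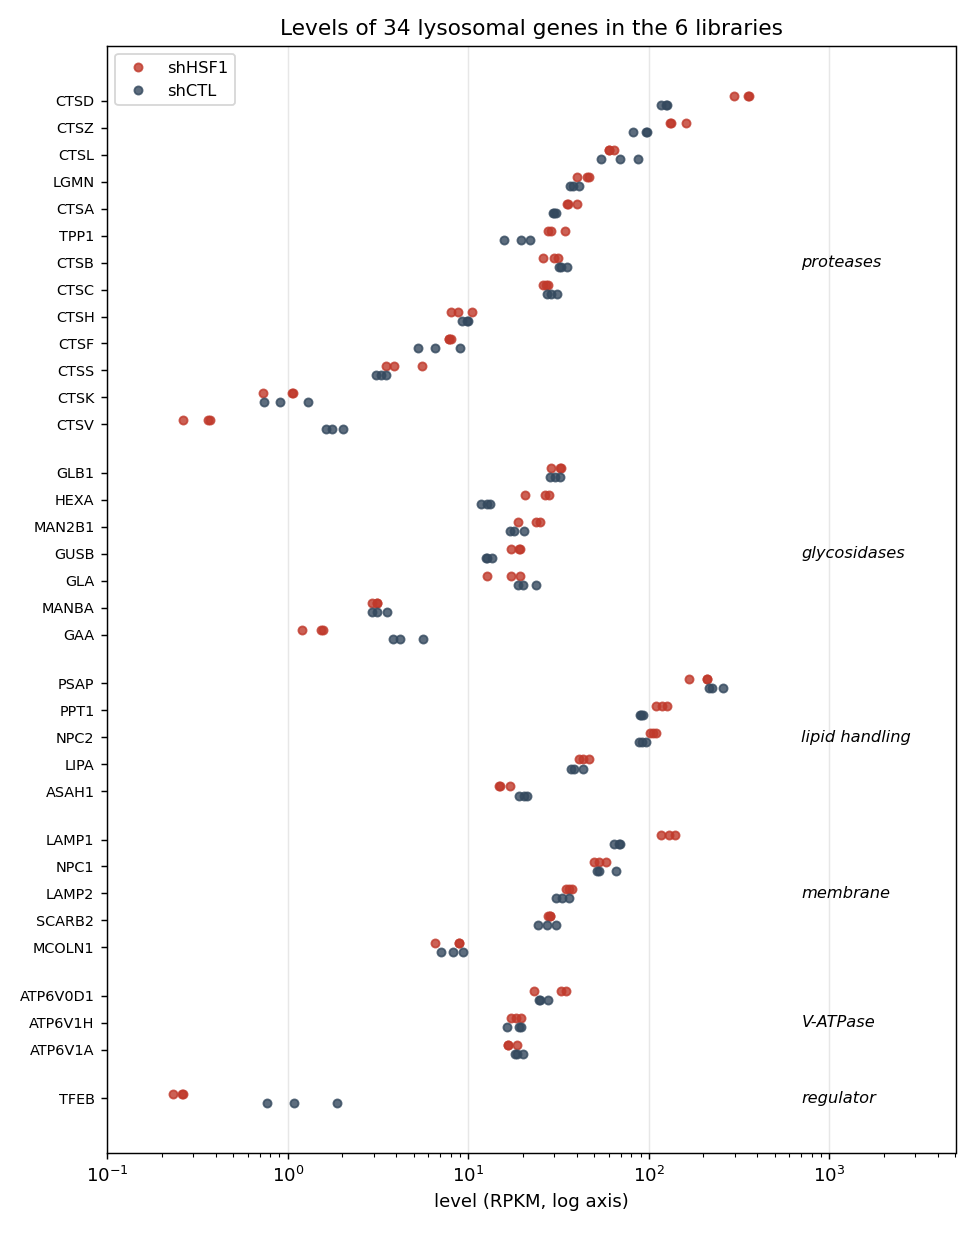
Level in RPKM, on a log axis, of the 34 tested lysosomal genes in each of the 3 shHSF1 and 3 shCTL libraries, by class; each point is a library. CTSD and PSAP are the most abundant members, and TFEB, CTSV and CTSK the least.

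Among the 7 glycosidases, 2 rose, 1 fell and 4 did not pass, with a median log2 fold change of 0.05. Thus 42.9% passed, beside 33.8% of all genes tested. HEXA (chromosome 15, 72343435 to 72376473), the alpha subunit of beta-hexosaminidase A, whose loss causes Tay-Sachs disease, was at 26.7, 28.1 and 20.5 RPKM in shHSF1, against 12.6, 13.3 and 11.7 RPKM in shCTL. This made a 1.999-fold rise without overlap (log2 fold change 0.96, SE 0.123, limma adjusted p = 0.000994). The 40 tested genes around HEXA had a median log2 fold change of 0.61, and with shHSF1 values centred on such neighbours the change of HEXA was 0.39 (limma adjusted p = 0.0488). That p-value takes the shift of the neighbours as fixed and leaves out the spread among them. Exons of the antisense gene HEXA-AS1 cover 361 of the 3008 exon bases of HEXA, and the sources used here do not say whether counting used strand. GUSB (chromosome 7, 65960686 to 65982314), beta-glucuronidase, was at 19.4, 19.1 and 17.3 RPKM in shHSF1 and 12.7, 13.5 and 12.5 RPKM in shCTL. It rose 1.44-fold (log2 fold change 0.51, SE 0.0793, limma adjusted p = 0.00235), with neighbours at 0.11.

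GAA (chromosome 17, 80101526 to 80119882), the acid alpha-glucosidase that degrades glycogen and is deficient in Pompe disease, fell. The shHSF1 libraries held 1.52, 1.57 and 1.201 RPKM and the shCTL libraries 4.17, 5.65 and 3.81 RPKM, from 775 and 3047 reads. Its 3.17-fold fall (log2 fold change -1.37, SE 0.157, limma adjusted p = 0.000603) was the largest among the glycosidases. GLA, the alpha-galactosidase deficient in Fabry disease, was at 19.4, 17.2 and 12.7 RPKM in shHSF1 and 23.9, 20.2 and 18.8 RPKM in shCTL. The top shHSF1 library of GLA overlapped the lowest shCTL library, and the gene passed only with the replicate block (limma adjusted p = 0.00963, and 0.125 without it). GLB1, beta-galactosidase and the most abundant glycosidase, averaged 31.3 ± 2.17 RPKM in shHSF1 and 30.2 ± 1.93 RPKM in shCTL (SD, n = 3 each), with a 95% interval of -0.14 to 0.25 for its log2 fold change. MAN2B1, the lysosomal alpha-mannosidase, averaged 22.5 ± 3.20 RPKM in shHSF1 and 18.4 ± 1.72 RPKM in shCTL (limma adjusted p = 0.117, 0.0264 with the replicate block and 0.0174 without shHSF1 3). MANBA, beta-mannosidase, was at 2.92 to 3.14 RPKM in shHSF1 and 2.95 to 3.55 RPKM in shCTL, with a 95% interval of -0.30 to 0.18 for its log2 fold change.

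Among 5 genes of lipid handling, 1 rose, 1 fell and 3 did not pass, with a median log2 fold change of 0.14. Thus 40% passed, beside 33.8% of all genes tested. PPT1 (chromosome 1, 40072710 to 40097470), the thioesterase that removes palmitate from proteins, was at 126, 118 and 109 RPKM in shHSF1 and 92.4, 90.5 and 89.9 RPKM in shCTL. It rose 1.29-fold without overlap (log2 fold change 0.37, SE 0.0740, limma adjusted p = 0.00722). ASAH1, the acid ceramidase, was at 17.0, 14.9 and 14.98 RPKM in shHSF1 and 19.0, 21.2 and 20.3 RPKM in shCTL. Its fall was 1.29-fold (log2 fold change -0.36, SE 0.0842, limma adjusted p = 0.0135), and the call was lost without shHSF1 2 or without shCTL 3 (limma adjusted p up to 0.0610). PSAP, the precursor of the saposins that present sphingolipids to hydrolases, was the most abundant member in shCTL. It was at 209, 211 and 167 RPKM in shHSF1, each below the 224, 257 and 215 RPKM of shCTL, and did not pass (limma adjusted p = 0.134, and 0.0189 with the replicate block). NPC2, the soluble cholesterol carrier, was at 109, 106 and 102 RPKM in shHSF1, each above the 88.8, 97.1 and 91.3 RPKM of shCTL, and did not pass either (limma adjusted p = 0.0654, and 0.0295 with the replicate block). LIPA, the acid lipase, averaged 43.6 ± 2.81 RPKM in shHSF1 and 39.5 ± 3.17 RPKM in shCTL (SD, n = 3 each).

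Among the 5 membrane proteins, LAMP1 rose and the other 4 did not pass, a share of 20% beside 33.8% of all genes tested. LAMP1 (chromosome 13, 113297154 to 113323426), a main glycoprotein of the lysosomal membrane, was at 140.5, 129 and 116 RPKM in shHSF1, against 68.5, 69.1 and 63.9 RPKM in shCTL. The rise was 1.92-fold, with the groups far apart (log2 fold change 0.93, SE 0.0860, limma adjusted p = 0.000232). Its 40 neighbours had a median log2 fold change of 0.59, and centring on neighbours brought the change of LAMP1 to 0.39 (limma adjusted p = 0.0134). Its relative LAMP2, needed for fusion of autophagosomes, was at 34.8, 36.0 and 37.5 RPKM in shHSF1 and 30.8, 36.0 and 33.0 RPKM in shCTL (limma adjusted p = 0.293). LAMP1 made 48.8% to 52.9% of the summed RPKM of the 5 membrane genes in shHSF1, against 32.9% to 36.9% in shCTL. NPC1, which exports cholesterol from the lysosome, averaged 53.5 ± 4.26 RPKM in shHSF1 and 56.7 ± 7.95 RPKM in shCTL (SD, n = 3 each). SCARB2, the receptor that carries glucocerebrosidase to the lysosome, averaged 28.2 ± 0.416 RPKM in shHSF1 and 27.4 ± 3.10 RPKM in shCTL. MCOLN1, the calcium channel of the lysosome, averaged 8.07 ± 1.36 RPKM in shHSF1 and 8.23 ± 1.17 RPKM in shCTL, with a 95% interval of -0.37 to 0.31 for its log2 fold change.

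Of the 3 V-ATPase subunits none passed in limma (0 with the replicate block and 0 with voom, and 0 at an unadjusted p under 0.05), but ATP6V0D1 passed without shHSF1 3. Over all genes tested, 33.8% passed, and 48.3% with the replicate block. ATP6V0D1, of the membrane sector, was at 34.7, 32.6 and 23.1 RPKM in shHSF1 and 27.5, 24.97 and 24.6 RPKM in shCTL, so that shHSF1 1 and shHSF1 2 stood above the shCTL libraries and shHSF1 3 below them. Without shHSF1 3 its log2 fold change was 0.38 (limma adjusted p = 0.0106), against 0.21 with all libraries (0.325). ATP6V1A, the catalytic subunit, averaged 17.3 ± 1.22 RPKM in shHSF1 and 19.0 ± 0.986 RPKM in shCTL. ATP6V1H, a regulatory subunit, averaged 18.4 ± 1.26 RPKM in shHSF1 and 18.3 ± 1.69 RPKM in shCTL (SD, n = 3 each), with a 95% interval of -0.21 to 0.22 for its log2 fold change.

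TFEB (chromosome 6, 41683978 to 41736259), the transcription factor of the lysosomal gene network, fell 4.94-fold at a low level. It was at 0.232, 0.265 and 0.258 RPKM in shHSF1, against 0.763, 1.88 and 1.08 RPKM in shCTL, from 79 and 457 reads. The shCTL libraries were spread widely, yet each lay well above every shHSF1 library (log2 fold change -1.16, SE 0.218, limma adjusted p = 0.00526, and at most 0.0205 with any library left out). TFEB too passed the filter only through shCTL; its limma adjusted p was 0.0190 with no filter, and it was not tested at a filter of 1 RPKM. Levels of its relatives were far higher: TFE3 averaged 20.9 ± 2.26 RPKM in shHSF1 and 19.9 ± 0.599 RPKM in shCTL (limma adjusted p = 0.643), and MITF fell 1.37-fold to 9.96 ± 1.44 RPKM in shHSF1, against 13.7 ± 0.754 RPKM in shCTL (limma adjusted p = 0.0196; lost without shHSF1 2, shCTL 1 or shCTL 3, up to 0.0682).

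**Figure D3:**
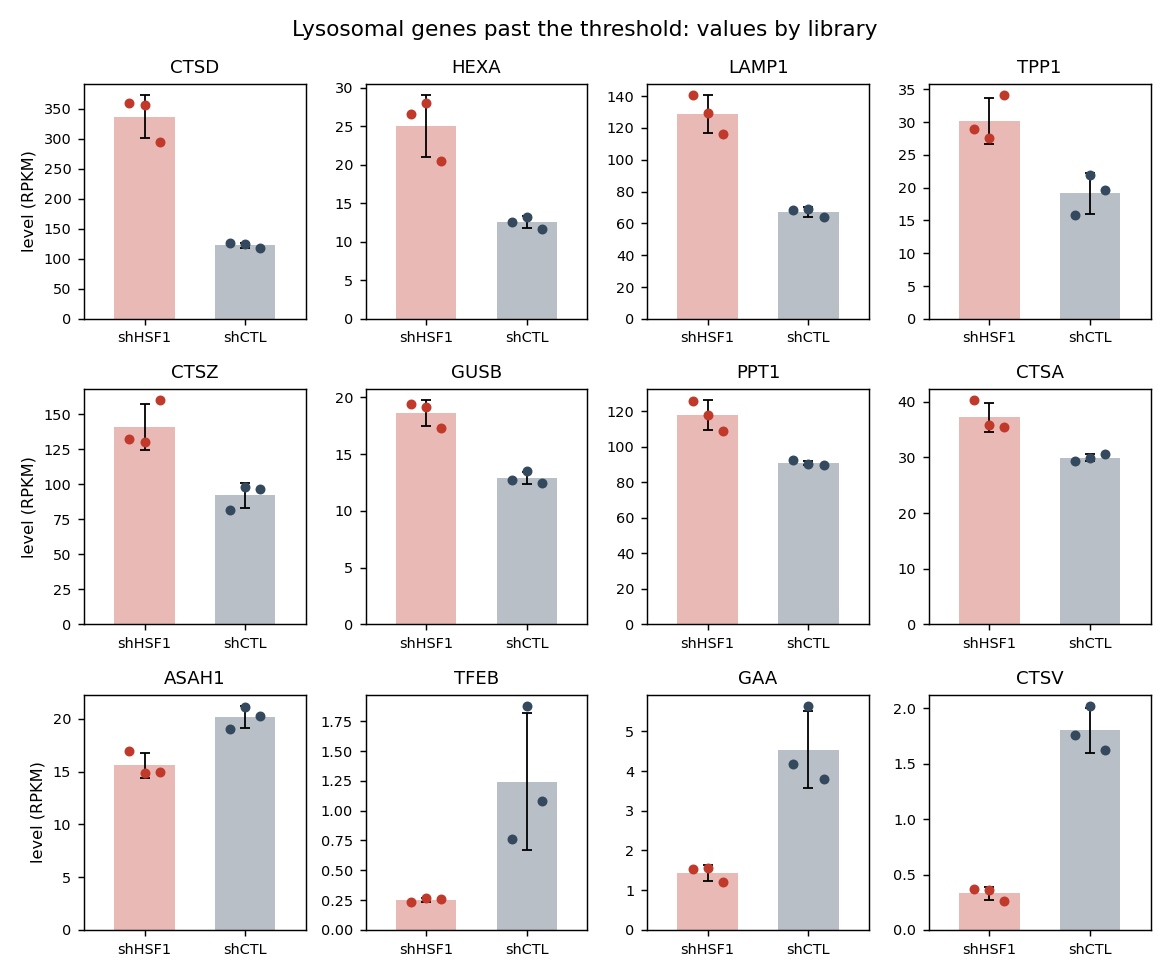
Level in RPKM of the 12 lysosomal genes past the threshold, with a point per library, bars for the group mean and whiskers for the SD (n = 3 shHSF1 and 3 shCTL). In each panel the shHSF1 points lie wholly above or wholly below the shCTL points; CTSD reaches 358 RPKM and CTSV at most 2.02 RPKM.

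Several members lie where neighbouring genes moved together, and their own changes did not follow those neighbours alike. HEXA and CTSH both lie on chromosome 15, with neighbours at medians of 0.61 and 0.68, yet HEXA changed by 0.96 and CTSH by -0.10 on the log2 scale. Centred on its neighbours, CTSH was at -0.73 (limma adjusted p = 0.00276). On chromosome 4, MANBA and SCARB2 had neighbours at -0.48 and -0.38 and their own changes of -0.06 and 0.04. Centring put MANBA at 0.46 (limma adjusted p = 0.0126) and SCARB2 at 0.46 (0.00787), and PSAP passed too, at -0.37 (0.0443). Uncentred, none of these genes passed (limma adjusted p = 0.549 for CTSH, 0.718 for MANBA, 0.756 for SCARB2 and 0.134 for PSAP). The shift of the neighbours was subtracted as a fixed value, so every centred p-value leaves out the spread among neighbours. A centred call describes a difference from the neighbours and not a change between the groups. With centring, 10 of the 34 lysosomal genes were higher and 6 lower, where 28.3% of all genes tested passed, 15.6% higher and 12.8% lower.

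Other genes of the lysosome, in 6 lists of 101 genes, were read in the same fit. A gene listed as TMEM55B was not found under that symbol, 5 genes were under the filter and 95 were tested, of which 12 rose and 14 fell (27.4%, beside 33.8% of all genes). The count of lower genes was 9 without shHSF1 2, 9 without shCTL 2 and 7 without shCTL 3. Once the replicate block was added, 23 were higher and 21 lower, where 26.2% of all genes tested were higher and 22.1% lower. Of 27 other hydrolases, 3 rose and 7 fell, a share of 37.0% beside 33.8% of all genes tested. GM2A, the activator protein that presents GM2 ganglioside to hexosaminidase A, fell 2.03-fold: it was at 13.2, 12.2 and 12.9 RPKM in shHSF1 and 25.9, 26.6 and 25.3 RPKM in shCTL (limma adjusted p = 7.22e-05). All shHSF1 values of GM2A lay below all shCTL values, whereas those of HEXA lay above. ACP2, the lysosomal acid phosphatase, rose 1.45-fold and PLBD2, a phospholipase B-like protein, 1.37-fold, a call for PLBD2 that was lost without shHSF1 1 or shHSF1 2 (limma adjusted p up to 0.0614). PRCP, a prolylcarboxypeptidase, fell 1.64-fold. MAN2B2, an alpha-mannosidase whose 40 neighbours stood at -0.35, fell 1.56-fold and did not pass once centred on them (limma adjusted p = 0.0702).

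Of 14 sorting genes, 3 rose and 0 fell, a share of 21.4% beside 33.8% of all genes tested. With the replicate block 4 were higher and 0 lower, where 26.2% of all genes tested were higher and 22.1% lower. The 3 that rose without the block were both mannose 6-phosphate receptors, M6PR and IGF2R, and the sorting receptor sortilin, SORT1. M6PR was at 47.5, 44.1 and 48.1 RPKM in shHSF1 and 30.7, 27.8 and 33.9 RPKM in shCTL (1.51-fold, limma adjusted p = 0.00191). IGF2R rose 1.45-fold to 28.4 ± 3.72 RPKM in shHSF1, against 19.5 ± 2.64 RPKM in shCTL (SD, n = 3 each), a call lost without shHSF1 1, shHSF1 2 or shCTL 3 (limma adjusted p up to 0.0568). SORT1 rose 1.31-fold to 53.2 ± 2.93 RPKM in shHSF1, against 40.5 ± 3.47 RPKM in shCTL. The enzymes that make the mannose 6-phosphate mark did not pass, among them GNPTAB at 21.4 RPKM in shHSF1 and 19.1 RPKM in shCTL, a gene chosen after its values were seen.

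Among 19 other membrane proteins, 3 rose and 3 fell, a share of 31.6% beside 33.8% of all genes tested. LAMP3, a LAMP relative of mature dendritic cells, rose 2.34-fold at a low level that passed the filter in all shHSF1 libraries but only 1 shCTL library, to 1.13 ± 0.0663 RPKM in shHSF1, against 0.481 ± 0.113 RPKM in shCTL. LMBRD1, which takes part in cobalamin export, rose 1.43-fold and SLC38A9, the arginine sensor of the lysosome, 1.34-fold. Both calls were lost without shHSF1 2 or shCTL 3, and that of LMBRD1 also without shHSF1 1, shHSF1 3 or shCTL 1 (limma adjusted p up to 0.108 for LMBRD1 and 0.0744 for SLC38A9). ABCA2, a lipid transporter, fell 1.73-fold. TMEM192 fell 1.69-fold and MFSD8, a transporter affected in another ceroid lipofuscinosis, 1.31-fold, both on chromosome 4 with neighbours at -0.41 and -0.45, and neither passed once centred (limma adjusted p = 0.0900 and 0.339). MFSD8 also lost its call without shHSF1 1 or any of the shCTL libraries (up to 0.0744).

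Of 13 further V-ATPase subunits, 1 rose and 0 fell (7.69%, beside 33.8% of all genes tested). With the replicate block 5 were higher and 3 lower, where 26.2% of all genes tested were higher and 22.1% lower. The subunit that rose without the block was ATP6V0A2, of the membrane sector, at 15.2 ± 0.218 RPKM in shHSF1 and 11.2 ± 0.935 RPKM in shCTL (1.36-fold, limma adjusted p = 0.00590). Of 17 genes of nutrient sensing at the lysosome, 1 rose and 3 fell (23.5%, beside 33.8% of all genes tested). Beside MITF, the Ragulator subunit LAMTOR3 fell 1.49-fold with neighbours at -0.52, and centring ended its call (limma adjusted p = 0.866). The Ragulator subunit LAMTOR4 fell 1.24-fold and the Rag GTPase RRAGB rose 1.201-fold, calls lost without any of the 6 libraries for LAMTOR4 and without any but shHSF1 3 for RRAGB (limma adjusted p up to 0.114 and 0.160).

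Cystatins are the natural inhibitors of cysteine cathepsins. Of 5 tested, 1 rose, 1 fell and 3 did not pass, so that 40% passed, beside 33.8% of all genes tested. The 2 that passed had the largest log2 changes among the 95 tested genes of the 6 lists. CST7, cystatin F, an inhibitor known from immune cells that reaches the lysosome, was at 25.9, 26.0 and 29.6 RPKM in shHSF1, against 5.11, 5.58 and 4.51 RPKM in shCTL. Its rise of 5.36-fold left the groups far apart (log2 fold change 2.31, SE 0.101, limma adjusted p = 1.03e-05). CST4, a salivary cystatin, was at 4.56, 5.76 and 6.60 RPKM in shHSF1 and 8.60, 26.3 and 12.98 RPKM in shCTL. It fell 2.83-fold (limma adjusted p = 0.0249), a call lost without shHSF1 1, shHSF1 2 or shCTL 3 (up to 0.0776), and 27.4% of its 50-base stretches also occur in CST1, so the division of reads is uncertain. The broadly expressed inhibitors CST3 and CSTB, at 59.3 and 60.8 RPKM in shHSF1 and 65.5 and 66.3 RPKM in shCTL, did not pass (both chosen after their values were seen).

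**Figure D4:**
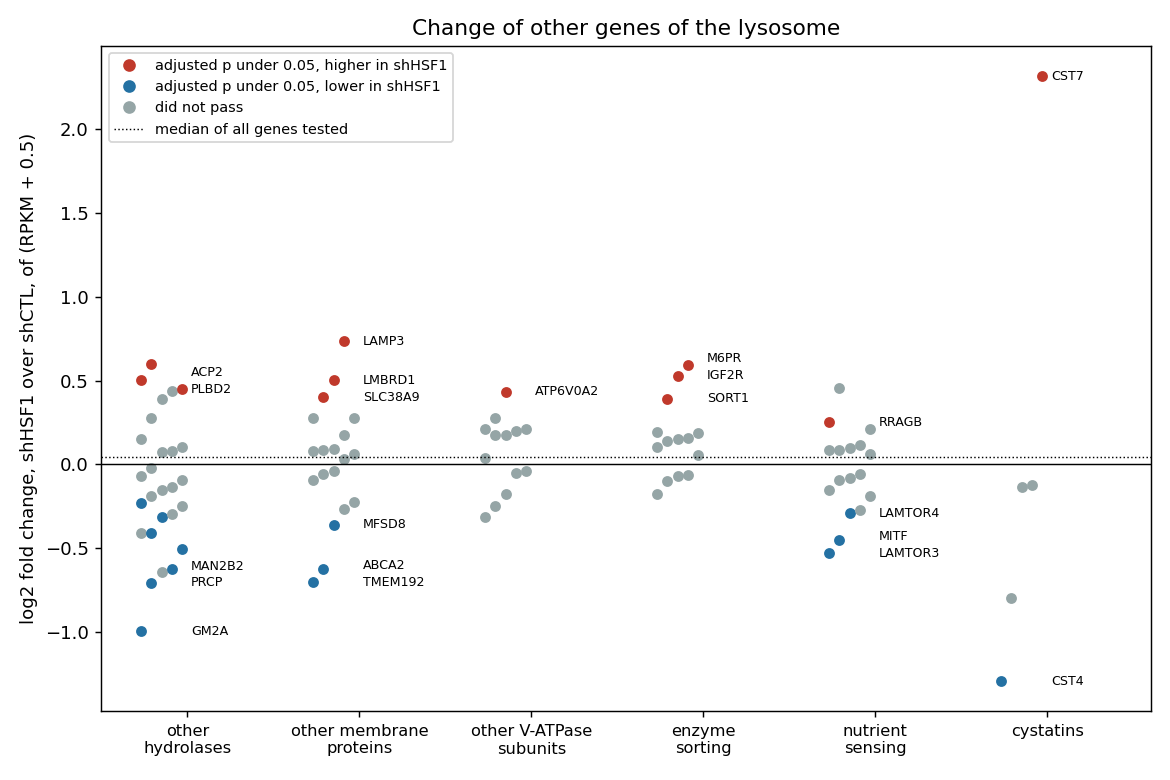
Log2 fold change, shHSF1 over shCTL, of log2(RPKM + 0.5) for 95 other genes of the lysosome in 6 lists; each point is a gene, coloured by its limma call, and the dotted line is the median of all genes tested (0.04). CST7 stands at 2.31 and CST4 at -1.29. The sorting list (3 rises) and the list of other V-ATPase subunits (1 rise) hold no fall past the threshold. The shares that passed were 21.4% and 7.69%, beside 33.8% of all genes tested.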

How the data were processed

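RNA of MDA-MB-231 cells was sequenced in 3 shHSF1 and 3 shCTL libraries. The authors deposited RPKM values for 28058 genes; per the submitters' processing notes STAR, featureCounts and hg38 were used, and the sources used here give no version, annotation or strand setting. Control columns, named shScr, were taken as shCTL by number. In each column RPKM times length gave whole reads for 100% of genes (tolerance 0.01), from which depth was taken. The deposited table gives each gene's length in bases; lengths that count a copy on an alternate contig lower RPKM in all libraries alike.

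The filter kept genes that reached 0.5 RPKM in 3 or more libraries, and the test was limma 3.58.1 (R 4.3.3; model on group, mean-variance trend, log2(RPKM + 0.5), two-sided, adjusted over all 12433 genes). Only the limma fit without the block was tested on simulated data. These held no pairing of libraries and no shift shared by neighbouring genes, and the other steps were not tested in this way. Members and lists were chosen with earlier results of these data known. All members past the threshold are named with every library's value, and from each other list up to 3 genes per direction with the largest change without overlap; a gene among the other hydrolases is not reported here.

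Libraries with the same replicate number deviated together from their group means (correlations of 0.468, 0.307 and 0.451, against -0.370 to -0.0200 for different numbers). The main fit left this pairing out. Of the fits, only the replicate block treated same-numbered libraries as pairs, though no label says what a number marks. Within groups, chi-square per gene between libraries was 16.7 to 52.5, above sampling noise. Alternatives were the replicate block, each library left out, filters of 1 RPKM and none, pseudocounts of 0.1 and 1, median scaling, quantile normalization, no trend, voom on recovered reads, and centring on 40 neighbouring genes. Promoters are RefSeq's (GRCh38.p14); shared 50-base stretches were counted in GENCODE v29. Figures were drawn with matplotlib 3.10.9.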

Additional observations from a re-analysis of the deposited data

How the results depend on the processing

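With a library left out, 7 to 11 lysosomal genes were higher and 3 to 4 lower, 8 to 17 other lysosome genes were higher and 7 to 12 lower, and the log2 fold change of HSF1 ranged from -3.53 to -3.34. The replicate block gave 7 lysosomal genes lower in place of 4, and 23 other lysosome genes higher in place of 12. With the block 48.3% of all genes tested passed, against 33.8% without it. The called members kept their direction in all alternatives that tested them; 187 of their values kept the call and 4 lost it, all 4 in CTSA or ASAH1 with a library left out. Members not called gained a call with their sign kept in 13 values, 4 of them with a library left out: CTSF without shCTL 2, and LGMN, MAN2B1 and ATP6V0D1 without shHSF1 3. MANBA also gained a call, with its sign turned, once centred on neighbouring genes. Named genes of the other lists lost the call in 41 values. Signs turned in 7 members that did not pass and, once centred, in the called genes MFSD8 and LAMTOR3. Over the fits with a library left out, log2 fold changes ranged from -0.14 to 0.13 for CTSK, -0.33 to 0.00668 for CTSL, -0.11 to 0.0101 for MANBA, -0.14 to 0.0365 for NPC1, -0.0354 to 0.12 for SCARB2, -0.13 to 0.11 for MCOLN1 and -0.0699 to 0.0535 for ATP6V1H. Centred on neighbouring genes, which removes the shift of the stretch by construction, MANBA was at 0.46, MCOLN1 at 0.14, ATP6V1H at -0.11, MFSD8 at 0.13 and LAMTOR3 at 0.0297. Voom gave CTSK 0.0161 and ATP6V1H -0.000674, median scaling gave ATP6V1H -0.0144 and quantile normalization -0.0135; the cause was not tested. With 3 libraries a group, genes that did not pass are not shown to be unchanged. Genes under 2 RPKM, such as TFEB with 79 reads in shHSF1, have the least depth behind them.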
